A study of Homo sapiens with 35 samples.

Results

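The calcitonin gene-related peptides and their receptor parts were followed in the human neuroblastoma line BE(2)-C. The family comprised 6 genes, the peptide genes CALCB and CALCA, the receptor gene CALCRL, its accessory proteins RAMP1 and RAMP2, and CRCP. Its members were all probe sets annotated to exactly 1 of these symbols, which gave 11 probe sets of 6 genes, of 19415 single-symbol probe sets of 11940 genes on the array. The family was chosen by measured values, namely the high signal of CALCB in cells given ATRA for 72 h, so the member values in that contrast are a description with no test. Nor is a test given for any member in the interaction at 72 h or in the ATRA effect at 72 h minus that at 6 h, which contain that contrast, or for CALCB wherever the ATRA or DMSO arrays of 72 h enter.

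Cells received all-trans retinoic acid (ATRA, 5 µM), valproic acid (VPA, a histone deacetylase inhibitor, 1 mM), both agents together at those doses, or the vehicle DMSO. They were collected after 6, 24 or 72 h, which gave 12 groups and 35 Affymetrix human genome arrays. Each group held 3 arrays, except DMSO at 72 h, which held 2. The replicates are described only as triplicates of 1 cell line, so p-values measure the spread between these samples, which may be technical.

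Calcitonin gene-related peptide (CGRP) is a neuropeptide of sensory neurons and a strong dilator of blood vessels. CALCA yields either the hormone calcitonin or alpha-CGRP through alternative splicing, and CALCB encodes beta-CGRP. CALCRL is a G protein-coupled receptor whose ligand depends on its partner: with RAMP1 it forms the CGRP receptor, with RAMP2 an adrenomedullin receptor, and it signals through Gs and cyclic AMP. CRCP encodes a protein first described as a component that couples the CGRP receptor to its signal, and the same protein is a subunit of RNA polymerase III.

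Values are the authors' RMA-normalized probe set intensity on a linear scale, and changes are differences of log2(intensity + 1) with their standard errors. A change was called where limma's Benjamini-Hochberg adjusted p over all 19415 probe sets of the contrast was below 0.05. Array medians ran from 53.2 to 58.9 in 34 arrays. Replicate 1 of DMSO at 24 h stood apart, with a median of 43.6 and a mean correlation of 0.9875 with its own group, against 0.9916 to 0.9975 elsewhere. Array lower quartiles were 20.8 to 23.6, and values near it are not shown to be above background. Each marker gene was read by its probe set with the highest mean log2 intensity, so its other probe sets may lie lower. Of 9 neuroblastoma markers 8 were measured, and all 8 had a mean intensity above 23.6, from HAND2 at 32.7 to CHGA at 6520. Their summed group means ran from 14991 in ATRA at 72 h to 24105 in DMSO at 6 h. Among markers of other cell types, 1 of 5 endothelial genes lay above 23.6 (TEK, 40.8), and PECAM1, CDH5, KDR and VWF did not. Of 3 measured blood cell genes CD14 did (26.1), and PTPRC and CD3E did not. Of 4 fibroblast genes DCN (1080), PDGFRA (57.4) and COL1A1 (48.7) did and COL1A2 (23.3) did not, and both measured Schwann cell genes did, SOX10 (39.0) and S100B (24.3). Summed group means of these lists ran from 112 to 132, 59 to 84, 975 to 1324 and 58 to 75, and their part in the results was not tested. The control probe sets for 3' against 5' signal also differed between groups, with a mean log2 ratio of 0.20 to 0.44 over the 6 h groups. At 24 h it was 0.97 in the combination, 0.89 in ATRA, 1.6 in VPA (2.33 on VPA replicate 2) and 1.05 in DMSO. At 72 h it was 1.36 in the combination, 1.82 in ATRA, 1.09 in VPA and 1.06 in DMSO. The part of RNA quality in the results was tested only by entering this ratio as a covariate. In bulk samples a change in the number of cells that hold an RNA and a change in RNA per cell cannot be told apart.

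CALCB, the beta-CGRP gene, had the widest range of the 11 probe sets, with group means spanning 6.56 log2 units (probe set 214636_at). At 6 h it was near the array floor in every group. The 3 combination arrays read 33.6, 34.0 and 39.4, the ATRA arrays 28.5, 28.8 and 26.4, the VPA arrays 35.7, 33.9 and 37.2, and the DMSO arrays 26.7, 28.1 and 28.8. The VPA and combination arrays all lay above the DMSO arrays, by only a few units of intensity. VPA raised CALCB by 0.34 ± 0.11 on the log2 scale (adjusted p = 0.0499). That call ended without any 1 of the 6 arrays compared, and with a pseudocount of 32 the change was 0.18 (adjusted p = 0.18, within 0.018 to 0.18 over the 15 alternatives). The combination gave 0.34 ± 0.11 (adjusted p = 0.0505) and ATRA 0.00 ± 0.11 (adjusted p = 1), and neither was called.

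By 24 h the groups had separated. CALCB read 640, 559 and 532 in combination arrays, 125, 113 and 112 in ATRA arrays, 72.1, 74.4 and 68.7 in VPA arrays, and 31.2, 27.2 and 25.6 in DMSO arrays. No array of 1 group overlapped another group. ATRA raised CALCB by 2.03 ± 0.11 log2 units, 4.08-fold (adjusted p = 2.47e-14). VPA raised it by 1.33 ± 0.11, 2.51-fold (adjusted p = 1.86e-09). The combination raised it by 4.32 ± 0.11, 19.9-fold (adjusted p = 5.15e-22). These folds start from values near the floor, and with a pseudocount of 32 they were 2.48, 1.73 and 10.1. Without replicate 1 of DMSO at 24 h the changes were 2.11, 1.41 and 4.40.

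The combination exceeded each agent alone at 24 h, by 2.29 ± 0.11 log2 units over ATRA (4.89-fold, adjusted p = 1.48e-14) and by 2.99 ± 0.11 over VPA (7.92-fold, adjusted p = 6.45e-18). The interaction, the combination's change minus the sum of both single-agent changes on the log2 scale, was 0.96 ± 0.16 (adjusted p = 0.00135). On the intensity scale the combination's mean lay 549 units above DMSO, and the single-agent increments of 89.0 for ATRA and 43.7 for VPA sum to 133. The interaction was 0.88 without replicate 1 of DMSO at 24 h (adjusted p = 0.0063) and 1.24 with a pseudocount of 32, and over all 21 alternatives its adjusted p ran from 7e-08 to 0.034. The effects at 24 h also exceeded those at 6 h, by 2.02 ± 0.16 for ATRA (adjusted p = 4.52e-10), 0.99 ± 0.16 for VPA (adjusted p = 0.000613) and 3.98 ± 0.16 for the combination (adjusted p = 6.2e-17).

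At 72 h CALCB read 2380, 2090 and 2740 in combination arrays, 666, 614 and 614 in ATRA arrays, 29.5, 30.6 and 41.5 in VPA arrays, and 21.9 and 26.8 in DMSO arrays. The combination arrays were all above the ATRA arrays, and the VPA arrays were near their level at 6 h. As a description, the log2 change against DMSO was 4.65 ± 0.12 for ATRA (25-fold), 0.45 ± 0.12 for VPA (1.36-fold) and 6.56 ± 0.12 for the combination (94.6-fold). With a pseudocount of 32 the folds for ATRA and the combination were 11.8 and 43.0. The combination stood 1.92 ± 0.11 log2 units above ATRA (3.78-fold), and the interaction was 1.47 ± 0.17. The comparison that uses neither the ATRA nor the DMSO arrays was tested: the combination was 6.12 ± 0.11 log2 units higher than VPA alone (69.4-fold, 36.9-fold with a pseudocount of 32, adjusted p = 6.64e-26). Combination cells had means of 577 at 24 h and 2400 at 72 h, while ATRA cells had 117 and 631 and VPA cells 71.7 and 33.8 at these times.

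Over the 12 groups, the order of CALCB from the top was the combination at 72 h (2400 ± 330, SD, n = 3), ATRA at 72 h (631 ± 30), the combination at 24 h (577 ± 56), ATRA at 24 h (117 ± 7.0) and VPA at 24 h (71.7 ± 2.8). ATRA at 72 h and the combination at 24 h overlapped array by array. The other 7 groups had means between 24.4 and 35.6, and among these 7 each overlapped its neighbours in the order. VPA at 24 h did not overlap the group below it. CALCB exceeded its array's lower quartile in 34 of 35 arrays, the exception being a DMSO array of 72 h.

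**Figure D1:**
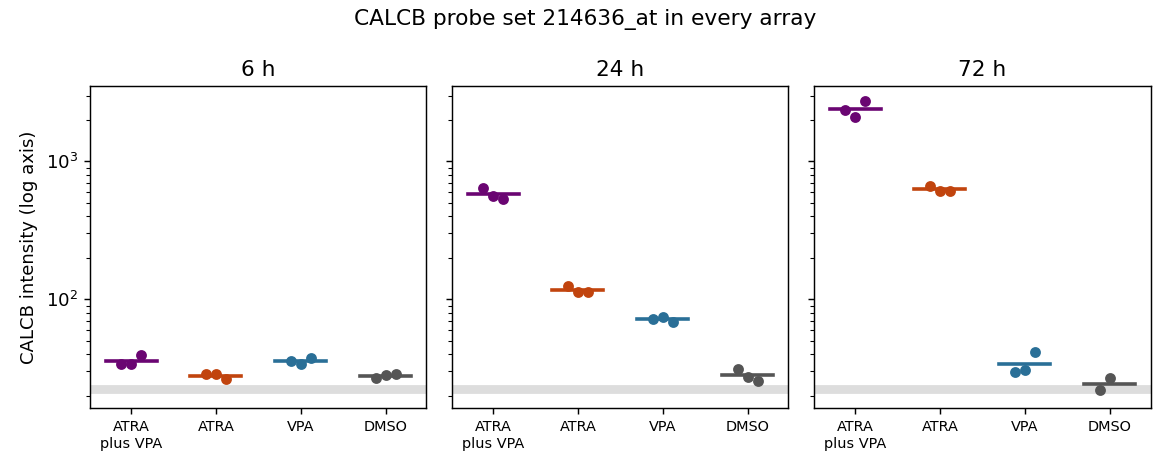
CALCB intensity (log axis) on every array by treatment and time, points for arrays and bars for group means, with a grey band for the range of array lower quartiles (20.8 to 23.6). The combination arrays reach 532 to 640 at 24 h and 2090 to 2740 at 72 h, above the ATRA arrays of the same time, and the VPA arrays are above DMSO at 24 h.

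CALCA, the gene of calcitonin and alpha-CGRP, was represented by 4 probe sets that did not behave alike. Its upstream sequence is shown because CALCA and CALCB both rose with the combination and no sequence of the CALCB promoter was used here. It is the 250 bases before the RefSeq start of CALCA (GRCh38.p14, chr11:14972352-14972601, minus strand, written 5′ to 3′ along the gene). Capitals mark matches to AGGTCA, the core motif bound by retinoic acid receptors and other nuclear receptors, and to TGACG, the core of the cyclic AMP response element.

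CALCA upstream region: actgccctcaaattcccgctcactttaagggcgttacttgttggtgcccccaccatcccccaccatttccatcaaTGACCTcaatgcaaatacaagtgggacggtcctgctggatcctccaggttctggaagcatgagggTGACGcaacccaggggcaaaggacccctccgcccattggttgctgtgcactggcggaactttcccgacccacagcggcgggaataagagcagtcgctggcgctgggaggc

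Both strands were searched, and positions count back from the base before the RefSeq start, at -1. AGGTCA matched once, on the opposite strand at -175 to -170, and 12.1% of the 35116 promoter windows of this length in the table hold it. TGACG matched at -110 to -106, and 21.2% of windows hold it. The full element TGACGTCA had no match (1.65% of windows). The E-box letters CANNTG matched at -158 to -153 (61.8% of windows), with no overlap with the other matches. These are matches of letters and not measured sites. Of the 6 genes, CALCA and CALCRL were in the promoter table.

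Probe set 217561_at of CALCA lay between 15.2 and 17.3 on all 6 h arrays, below the lower quartile of every array. At 24 h it read 20.1, 19.8 and 19.8 in combination arrays, 19.2, 19.9 and 17.5 in ATRA arrays, 19.7, 18.6 and 18.0 in VPA arrays, and 21.8, 16.5 and 16.9 in DMSO arrays. No treatment separated from DMSO at that time. The highest DMSO array, at 21.8, was replicate 1, the array that stood apart. The other DMSO arrays were below every treated array, and all treated arrays were below their lower quartiles. At 72 h the combination arrays read 109, 218 and 273, the ATRA arrays 26.6, 31.1 and 29.6, the VPA arrays 18.2, 17.4 and 16.0, and the DMSO arrays 18.2 and 18.0. All 3 combination arrays stood far above every other array, and they differed widely among themselves. The combination raised CALCA by 3.30 ± 0.19 log2 units against DMSO (9.83-fold, adjusted p = 4.47e-14), a 4.41-fold rise with a pseudocount of 32. It was 2.64 ± 0.17 above ATRA (adjusted p = 5.63e-12) and 3.37 ± 0.17 above VPA (adjusted p = 3.5e-15), which is 6.25-fold and 10.3-fold, or 3.62-fold and 4.49-fold with a pseudocount of 32. The VPA and DMSO arrays of 72 h were all below their lower quartiles, so the size of the folds over them is set by the floor and the pseudocount. The standard errors pool the spread over all 12 groups. The log2 SD was 0.68 in the combination at 72 h and at most 0.21 in every other group. The highest adjusted p over the alternatives was 0.00028 against DMSO, 0.00049 against ATRA and 5.3e-05 against VPA. The interaction at 72 h was 2.71 ± 0.26, given with no test, and the combination's effect at 72 h exceeded that at 6 h by 3.32 ± 0.26 (adjusted p = 9.4e-11). For ATRA alone the change at 72 h was 0.65 ± 0.19, given with no test.

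A second CALCA probe set, 217495_x_at, was also higher with the combination at 72 h, by less. At 72 h it read 58.6, 28.3 and 42.1 in combination arrays, 23.9, 26.3 and 26.3 in ATRA arrays, 21.7, 19.1 and 24.6 in VPA arrays, and 20.4 and 18.1 in DMSO arrays. The combination arrays lay above the rest, the lowest of them only just. Their order differed from that in 217561_at, since replicate 1 was the highest here (58.6) and the lowest there (109). The combination raised it by 1.06 ± 0.17 log2 units against DMSO (2.09-fold, adjusted p = 1.85e-05), 0.90 ± 0.16 against VPA (adjusted p = 5.7e-05) and 0.67 ± 0.16 against ATRA (adjusted p = 0.00286). Without combination replicate 1 the change against ATRA was 0.42 (adjusted p = 0.039), and with only the compared arrays its adjusted p was 0.069, the highest of 13 alternatives (lowest 2.2e-05). The highest adjusted p over the alternatives was 0.016 against DMSO and 0.018 against VPA. The log2 SD of the combination arrays was 0.51, while the standard errors pool all groups. The combination's effect at 72 h exceeded that at 6 h by 1.05 ± 0.23 (adjusted p = 0.0019).

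The other CALCA probe sets, 210727_at (16.1 to 34.5) and 210728_s_at (23.6 to 32.5), were called in none of the contrasts tested. In the combination at 72 h 210728_s_at changed by 0.26 (adjusted p = 0.0732). The highest value of 210727_at, 34.5, was on replicate 1 of DMSO at 24 h. The files do not say which transcript of CALCA each probe set reads, so a calcitonin and an alpha-CGRP transcript were not told apart. CALCA and CALCB have closely similar transcripts, and cross-hybridisation between them was not tested. CALCB means of 577 (combination, 24 h) and 631 (ATRA, 72 h) stood beside 217561_at means of 19.9 and 29.1, and a CALCB mean of 2400 stood beside 200.

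**Figure D2:**
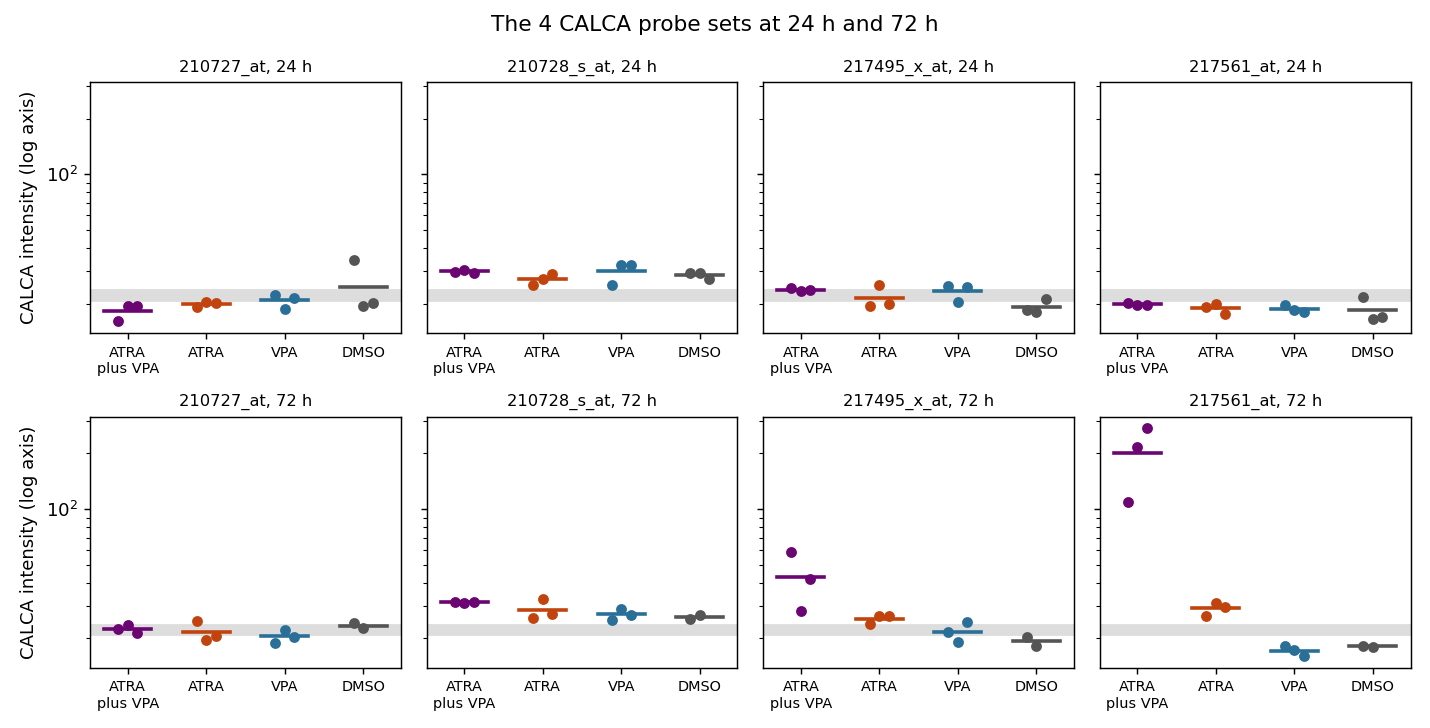
Intensity (log axis) of the 4 CALCA probe sets on every array at 24 h (upper row) and 72 h (lower row) by treatment, points for arrays and bars for group means, with a grey band for array lower quartiles (20.8 to 23.6). The combination arrays of 72 h stand out in 217561_at (109 to 273) and less in 217495_x_at (28.3 to 58.6), while 210727_at and 210728_s_at stay between 16.1 and 34.5.

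CALCRL, the receptor's membrane-spanning subunit, was near or under the array floor. Probe set 206331_at ran from 13.7 to 26.4 and exceeded the lower quartile in 7 of 35 arrays, and 210815_s_at ran from 16.3 to 24.5 and exceeded it in 3. The only call was a fall of 210815_s_at in the combination against ATRA at 72 h, by 0.27 ± 0.09 log2 units (adjusted p = 0.0386). That call ended in 4 of the 6 fits that leave out 1 of the arrays compared, with changes of -0.34 to -0.17 over the 6. No change of CALCRL was called under every alternative, and its signal was too low to read an order of levels.

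RAMP1, the accessory protein that makes CALCRL a CGRP receptor, was well above the floor on every array (204916_at, 92.0 to 521), and its level in DMSO fell with time. At 6 h it read 521, 402 and 416 in combination arrays, 427, 479 and 452 in ATRA arrays, 405, 351 and 438 in VPA arrays, and 408, 351 and 386 in DMSO arrays. At 24 h it read 314, 340 and 313 in combination arrays, 369, 319 and 339 in ATRA arrays, 252, 233 and 207 in VPA arrays, and 105, 205 and 181 in DMSO arrays. At 72 h it read 203, 226 and 265 in combination arrays, 284, 250 and 327 in ATRA arrays, 142, 149 and 189 in VPA arrays, and 103 and 92.0 in DMSO arrays. The treated groups did not overlap DMSO at 24 h or 72 h, although their own means at 72 h were below those at 6 h.

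In DMSO cells RAMP1 at 24 h changed by -1.27 ± 0.16 log2 units against 6 h (adjusted p = 1.75e-05), and the change at 72 h against 6 h was -1.96 ± 0.18 (adjusted p = 2.03e-08). The lowest DMSO array of 24 h was replicate 1, the array that stood apart, and without it the 24 h change was -0.98. Against DMSO of the same time, ATRA raised RAMP1 at 24 h by 1.11 ± 0.16 (2.16-fold, adjusted p = 9.48e-06) and the combination by 1.03 ± 0.16 (2.04-fold, adjusted p = 2.64e-05). Without that DMSO array these were 0.82 (adjusted p = 7.8e-05) and 0.74 (adjusted p = 0.00026), and the combination's call ended with only the compared arrays (adjusted p = 0.058). Over 15 alternatives the adjusted p ran from 1.5e-06 to 0.048 for ATRA and from 2.1e-06 to 0.058 for the combination. VPA raised RAMP1 at 24 h by 0.54 ± 0.16 (adjusted p = 0.0323), and without that DMSO array the change was 0.25 (adjusted p = 0.28). That call also ended without VPA replicate 1 or 2, with array weights and with only the compared arrays, and its adjusted p ran from 0.005 to 0.4 over the alternatives.

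At 72 h the combination raised RAMP1 by 1.23 ± 0.18 (2.35-fold, adjusted p = 4.25e-06) and VPA raised it by 0.70 ± 0.18 (1.63-fold, adjusted p = 0.0186). The VPA call ended without either DMSO array and without VPA replicate 3. ATRA stood 1.54 ± 0.18 above DMSO (2.91-fold), given with no test. The combination was 0.53 ± 0.16 above VPA (adjusted p = 0.0178), a call that ended without VPA replicate 1, VPA replicate 2 or combination replicate 3. Against ATRA its change was -0.31 ± 0.16, with a 95% interval of -0.64 to 0.02 (adjusted p = 0.204). As a description, the interaction at 72 h was -1.01 ± 0.24, so the combination was below the sum of both single-agent changes, and it ran from -1.17 to -0.84 over 20 alternatives. At 24 h the ATRA effect exceeded that at 6 h by 0.86 ± 0.23 (adjusted p = 0.024) and the combination's by 0.81 ± 0.23 (adjusted p = 0.0404). The combination's effect at 72 h exceeded that at 6 h by 1.01 ± 0.24 (adjusted p = 0.00427), and for ATRA this difference was 1.29 ± 0.24, given with no test. The call on the 24 h difference for ATRA ended in 6 of the fits that left out 1 array and that for the combination in 8, and both ended with only the compared arrays. The smallest values, without replicate 1 of DMSO at 24 h, were 0.57 (adjusted p = 0.086) and 0.52 (adjusted p = 0.13). Over 21 alternatives the adjusted p ran from 0.0039 to 0.14 and from 0.0066 to 0.26.

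RAMP2, the partner that gives CALCRL its adrenomedullin specificity, ran from 59.4 to 105 (205779_at). With all 35 arrays fitted it was called in none of the contrasts tested. Its largest difference at 72 h was in the combination, 0.25 ± 0.14 log2 units with a 95% interval of -0.04 to 0.54 (adjusted p = 0.23). In DMSO cells its change at 72 h against 6 h was -0.39 ± 0.14 (adjusted p = 0.071). Its 3 DMSO arrays at 24 h read 66.4, 101 and 105, and the lowest was again replicate 1. The treated arrays of 24 h, at 69.6 to 83.3, all lay above that replicate and below the other DMSO arrays. Without that replicate 4 members were called at 24 h with ATRA and 4 with the combination, against 3 each with all arrays. Whether RAMP2 was the member added was not recorded.

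CRCP, the receptor component protein, was called with ATRA and with the combination in 1 of its probe sets. Probe set 203898_at read 306, 262 and 263 in combination arrays at 6 h, 351, 371 and 391 in ATRA arrays, 291, 280 and 308 in VPA arrays, and 285, 329 and 323 in DMSO arrays. At 24 h it read 505, 489 and 433 in combination arrays, 468, 575 and 468 in ATRA arrays, 325, 338 and 296 in VPA arrays, and 319, 323 and 380 in DMSO arrays. At 72 h it read 536, 565 and 602 in combination arrays, 537, 518 and 542 in ATRA arrays, 385, 347 and 346 in VPA arrays, and 324 and 292 in DMSO arrays. All groups that held ATRA for 24 h or 72 h lay above VPA and DMSO of the same time.

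At 24 h ATRA raised CRCP by 0.56 ± 0.09 (1.47-fold, adjusted p = 5.96e-05) and the combination by 0.48 ± 0.09 (1.40-fold, adjusted p = 0.000374), while VPA gave -0.09 ± 0.09 (adjusted p = 0.623). With only the compared arrays the changes with ATRA and the combination had adjusted p = 0.061 and 0.076, the highest of 15 alternatives each (lowest 5.7e-06 and 2.8e-06). At 72 h the combination raised it by 0.88 ± 0.10 (1.84-fold, adjusted p = 1.02e-07), VPA gave 0.22 ± 0.10 (adjusted p = 0.309), and ATRA stood 0.79 ± 0.10 above DMSO (1.73-fold) with no test. The combination was above VPA by 0.57 ± 0.09 at 24 h (adjusted p = 7.02e-05) and 0.66 ± 0.09 at 72 h (adjusted p = 2.75e-06). At 6 h its change against ATRA was -0.42 ± 0.09 (adjusted p = 0.00274). As a description, the ATRA effect at 72 h exceeded that at 6 h by 0.54 ± 0.14. The difference was 0.37 once that ratio of 3' to 5' signal was a covariate, and 0.72 after a second quantile normalization. The combination's effect exceeded that at 6 h by 0.66 ± 0.13 at 24 h (adjusted p = 0.00206) and 1.05 ± 0.14 at 72 h (adjusted p = 2.37e-06). With only the compared arrays the 24 h difference had adjusted p = 0.06, against 6.2e-06 at the lowest of 21 alternatives.

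The other CRCP probe set, 203899_s_at, ran from 67.3 to 168 and was called in none of the contrasts tested. In the combination at 72 h it read 134, 115 and 153, against 108 and 96.5 in DMSO, a change of 0.38 ± 0.25 with a 95% interval of -0.13 to 0.89 (adjusted p = 0.315). The 2 probe sets of CRCP therefore differ in their calls, and the files do not say which transcripts they read.

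**Figure D3:**
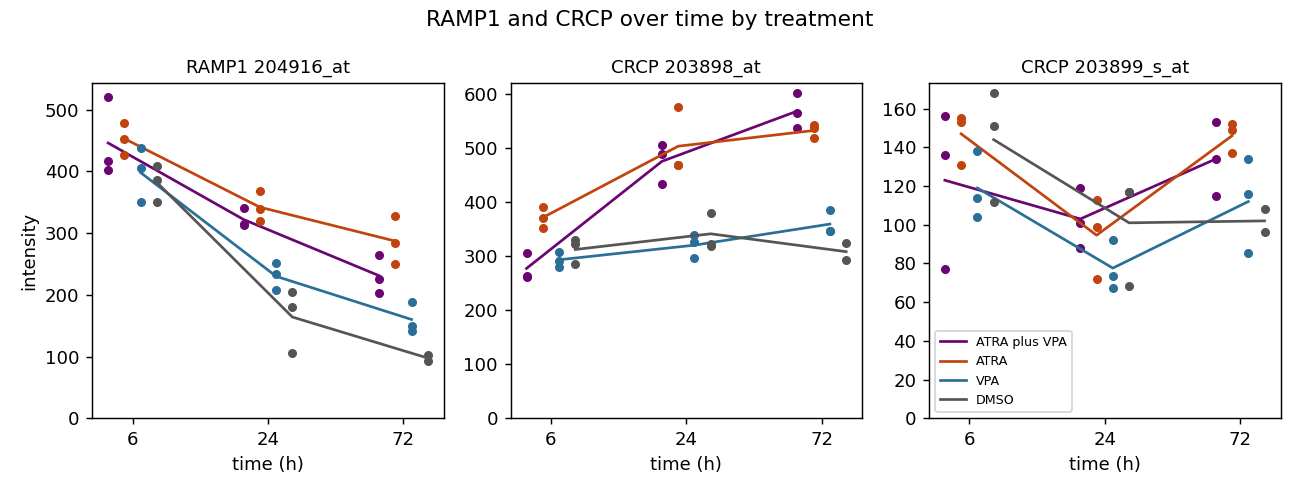
Intensity (linear axis from 0) of RAMP1 and of both CRCP probe sets on every array at 6, 24 and 72 h (evenly spaced), points for arrays and lines through group means. RAMP1 group means are lower at 72 h than at 6 h in all 4 treatments, with DMSO lowest (97.5 at 72 h, against 382 at 6 h), and CRCP 203898_at is highest in ATRA and the combination at 24 h and 72 h. CRCP 203899_s_at stays between 67.3 and 168.

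Member counts per contrast are set beside the share of all 19415 probe sets called. At 6 h none of 11 was called with ATRA (1.07% of all probe sets), 1 rose with VPA (8.9%) and none was called with the combination (8.97%). At 24 h ATRA raised 3 (14.8%), VPA 2 (9.09%) and the combination 3 (16.5%), and none fell. At 72 h, of 10 tested, 1 rose with VPA (4.85%) and 4 rose with the combination (26.4%). With ATRA at 72 h, 7 of 11 did not overlap DMSO, beside 51.1% of all probe sets. The median change over the 11 probe sets was 0.38 with the combination at 72 h, against -0.02 over all probe sets, and 0.17 against 0.02 at 24 h.

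Against ATRA alone, the combination had 1 member lower at 6 h (9.25%), 1 higher at 24 h (6.81%), and 2 higher and 1 lower of 10 at 72 h (16.9%). Against VPA alone none of 11 was called at 6 h (0.448%), 2 were higher at 24 h (8.98%) and 5 at 72 h (20.7%). An interaction was called for no probe set on the array at 6 h (0%), where limma gave 429 with an unadjusted p under 0.05 and none of the alternatives called a member. At 24 h it was called for CALCB among 11 members (0.453%). In DMSO cells RAMP1 was the only member called at 24 h against 6 h (17.7%) and at 72 h against 6 h (12.2%).

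For effects set against those at 6 h, 2 of 11 ATRA effects were called at 24 h (4.46%), 1 VPA effect (1.41%) and 3 combination effects (4.19%). At 72 h the calls among 10 members were no VPA effect (1.51%) and 4 combination effects (13.1%). The comparisons with DMSO of a given time share the same DMSO arrays.

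**Figure D4:**
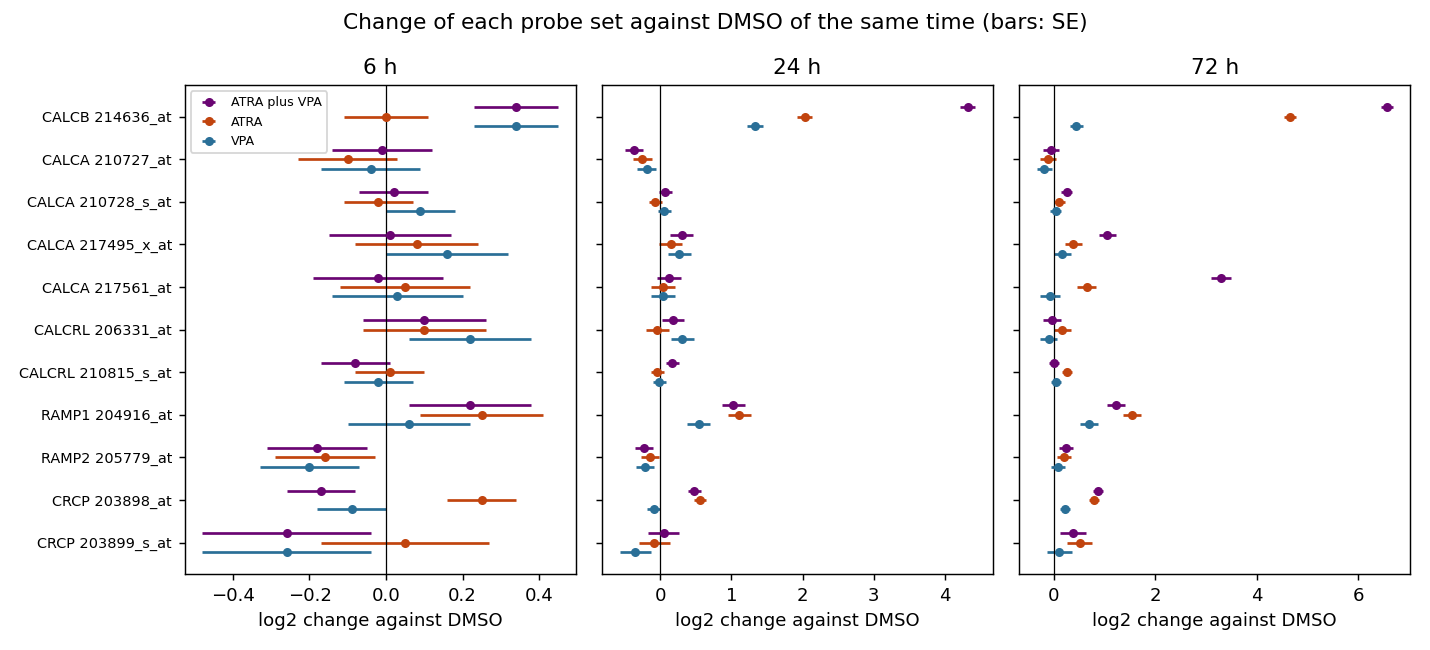
Log2 change against DMSO of the same time for each of the 11 member probe sets, by treatment and time, with bars of 1 standard error and a separate scale for each panel. CALCB lies farthest from 0 with ATRA and with the combination at 24 h and 72 h, and CALCA 217561_at departs from 0 with the combination at 72 h (3.30). RAMP1 lies between 0.54 and 1.54 from 24 h, and CRCP 203898_at between -0.09 and 0.88.

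The lists of related genes were counted in the same fit, where 16.5% of all probe sets were called with the combination at 24 h and 26.4% at 72 h. A list gene named with a change is given by its called probe set with the largest change. Its other probe sets may not have been called. Of 5 other calcitonin family genes listed, 4 were measured by 5 probe sets. These were the peptide genes ADM (adrenomedullin) and IAPP (amylin), the calcitonin receptor CALCR and the accessory protein RAMP3. Against DMSO their calls were all at 6 h, where ADM rose by 0.73 with VPA (46.7 against 28.0 in DMSO, adjusted p = 0.0036) and by 0.76 with the combination (49.4, adjusted p = 0.0021). The combination was also above ATRA for ADM, by 0.67 at 6 h (adjusted p = 0.0073) and 0.58 at 24 h (adjusted p = 0.027), and its effect on ADM at 72 h minus that at 6 h was -0.94 (adjusted p = 0.0084). No other probe set of the list was called in these contrasts. ADM had the highest group mean, 49.4 in the combination at 6 h, and those of RAMP3, IAPP and CALCR were between 15.7 and 23.1. Their median change with the combination at 72 h was -0.18, against -0.02 over all probe sets.

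Genes that process peptides and fill secretory granules changed in both directions. Of their 11 probe sets (8 genes), 4 rose and 3 fell with the combination at 24 h (63.6% called), and 5 rose and 1 fell at 72 h (54.5% called). The median change at 72 h was 0.31, against -0.02 over all probe sets. Calls were also frequent with the single agents. With VPA 3 rose and 3 fell at 24 h (54.5%, against 9.09% of all), and 4 rose and 2 fell at 72 h (54.5%, against 4.85%). With ATRA 3 rose and 2 fell at 24 h (45.5%, against 14.8%). SCG5, a chaperone of the prohormone convertase PCSK2, averaged 1980 with the combination at 72 h and 373 in DMSO (log2 change 2.41, adjusted p = 1.3e-13). PCSK1N, an inhibitor of PCSK1, averaged 1650 and 562 in these groups (1.54, adjusted p = 1.6e-09). SCG2, a granule protein, rose by 0.64 (adjusted p = 2.5e-07). CHGA, the granule protein chromogranin A, averaged 2820 with the combination and 9250 in DMSO, a change of -1.72 (adjusted p = 3.4e-14). PAM, the enzyme that amidates peptides such as CGRP, rose at 24 h by 0.49 with the combination (adjusted p = 6e-05) and by 0.52 with VPA (adjusted p = 7.2e-05). Of 7 probe sets for peptide-degrading enzymes (3 genes), 1 was called with the combination at 72 h (14.3%), ECE1, up by 0.50 (adjusted p = 0.014). Their median was -0.11.

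Of 64 probe sets for Gs and cyclic AMP signalling (21 genes), 12 rose and 2 fell with ATRA at 24 h (21.9%, against 14.8% of all), 9 rose with VPA at 24 h (14.1%, against 9.09%), and 10 rose and 2 fell with the combination at 24 h (18.8%, against 16.5%). At 72 h 1 rose with VPA (1.56%, against 4.85%), and 7 rose and 1 fell with the combination (12.5%, against 26.4%), with a median change of 0.00. CREM, a transcription factor of the cyclic AMP response, averaged 150 with the combination at 72 h and 43.4 in DMSO (1.78, adjusted p = 1.6e-08). ADCY7, an adenylyl cyclase, rose by 0.84 (adjusted p = 0.00026) and PRKAR2B, a regulatory subunit of protein kinase A, by 0.75 (adjusted p = 9e-08). PDE4A, a cyclic AMP phosphodiesterase, changed by -0.49 (adjusted p = 0.042).

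Of 12 probe sets for other RNA polymerase III subunits (9 genes), the company of CRCP in that enzyme, none rose and 3 fell with the combination at 72 h. That is 25% called, near the 26.4% of all probe sets. POLR3G averaged 32.5 with the combination and 80.4 in DMSO (-1.28, adjusted p = 5.3e-06), POLR3K changed by -0.77 (adjusted p = 7.7e-06) and POLR1C by -0.49 (adjusted p = 0.0069). The median of the list was -0.20. With the combination at 24 h 2 fell (16.7%, against 16.5% of all). With VPA 1 fell at 24 h (8.33%, against 9.09%) and none was called at 72 h (0%, against 4.85%). With ATRA none was called at 24 h (0%, against 14.8%), and 5 fell and none rose at 72 h (41.7%, against 26.6%). At 6 h none rose, and 1 fell with ATRA (8.33%, against 1.07%), 3 with VPA (25%, against 8.9%) and 4 with the combination (33.3%, against 8.97%).

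Among splicing factors studied on the CALCA exon choice (8 genes, 19 probe sets), 2 rose and 10 fell with the combination at 72 h (63.2% called, against 26.4% of all). These probe sets belonged to 2 genes that rose and 3 that fell, and the median of the list was -0.32. Against ATRA alone at 72 h, the combination had 1 probe set higher and 1 lower (10.5%, against 16.9% of all). ELAVL4, a neuronal RNA-binding protein, averaged 5170 with the combination and 2150 in DMSO (1.27, adjusted p = 1.7e-10). ELAVL1, its widely expressed relative, averaged 475 and 1520 in these groups (-1.68, adjusted p = 1.2e-13). SRSF3, a splicing regulator, changed by -1.0 (adjusted p = 7.2e-05) and PTBP1, a splicing repressor, by -1.06 (adjusted p = 0.048). Of 18 probe sets for genes of peptidergic sensory neurons (10 genes), 1 rose with the combination at 72 h (5.56%, against 26.4% of all). It was POU4F1, a transcription factor of sensory neurons, which averaged 78.0 with the combination and 50 in DMSO (0.62, adjusted p = 0.02). The median of that list was 0.09.

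The genes whose pattern was most like that of CALCB were ranked by Pearson's r over the 12 group means of log2(intensity + 1), among 4066 probe sets whose group means spanned at least 1 log2 unit. The 6 highest were GATA6 (0.976), ADD3 (0.974), HOXD10 (0.968), LAMA4 (0.965), HEBP2 (0.964) and GDF15 (0.963). GATA6 is a transcription factor, and its means were 107 in the combination at 72 h, 59.4 in ATRA at 72 h and 22.4 in DMSO at 72 h. LAMA4, a laminin chain, had 214, 141 and 24.0 in these groups, and GDF15, a secreted cytokine, had 1260, 176 and 26.0. The lowest were CHGA (-0.983), RNF138 (-0.979) and PPAT (-0.967). With a pseudocount of 32, 3 of the 6 genes were shared with this ranking. These correlations are a description over 12 groups that share treatments and times. Among the members themselves, r with CALCB was 0.891 for CALCA 217495_x_at, 0.870 for CRCP 203898_at, 0.792 for CALCA 217561_at and 0.079 for RAMP1.

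CALCA and CALCB lie on the same chromosome, with 0 protein-coding genes between them in RefSeq order. Of the 5 nearest protein-coding genes on each side, 7 were measured by 15 probe sets (RRAS2, COPB1, PSMA1, PDE3B, CYP2R1, C11orf58 and RPS13), and they were picked by position after the member values were seen. Their change with the combination at 72 h ran from -0.51 to 0.44 log2 units, a range that holds neither the CALCB value of 6.56 nor the 3.30 of CALCA 217561_at. On the CALCB side only C11orf58 and RPS13 were measured. INSC and SOX6, the nearest genes on that side, and PLEKHA7 had no probe set, so they were not read.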

How the data were processed

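Expression was measured in BE(2)-C cells on 35 arrays of 12 treatment and time groups. Values are intensity per probe set on a linear scale, which the authors summarised with RMA (per the submitters' processing notes; version and background steps not given in the sources used here). They carry no detection calls, so precision is limited by signal over background and by the number of arrays. Of 22930 deposited probe sets, 19415 had exactly 1 gene symbol, and 125 with several symbols, 3292 with none and 98 controls with a symbol were left out.

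Log2(intensity + 1) was fitted in R 4.3.3 with limma 3.58.1 (functions lmFit and eBayes, 12 group means, 23 residual and 5.05 prior degrees of freedom). The fit gave 26 contrasts, each adjusted by Benjamini-Hochberg over all 19415 probe sets with a threshold of 0.05. Intervals are 95%. A log2 change is a ratio of intensity plus 1 and understates changes near the floor. The procedure was tested on simulated data. No scan date or batch is named in the labels.

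The members, the lists and the naming rule were chosen with earlier results of these data known. The rule names every member probe set, the 6 genes most and 3 least like CALCB, and up to 4 called genes per list with the largest change, at the contrast described. The 3 DMSO arrays of a time serve every comparison of that time (2 at 72 h). Same-numbered arrays were checked for pairing in 24 pairs of arrays over 9 comparisons: correlations of deviations ran from -0.32 to 0.24 and 5 exceeded 0.1, so no pairing was used. The alternatives were a replicate block, only the arrays compared, leaving out each array in turn, a pseudocount of 32, a second quantile normalization, leaving out the lowest 33.3% of probe sets, the brightest probe set per gene, a trend with a robust prior, array weights and a covariate for the 3'/5' ratio.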

Additional observations from a re-analysis of the deposited data

Results flagged for a closer look

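Several differences between effects passed the test and are listed here by gene. For CALCB the ATRA by VPA interaction at 24 h was 0.96, and the effect at 24 h exceeded that at 6 h by 2.02 for ATRA, 0.99 for VPA and 3.98 for the combination. For CALCA 217561_at the combination's effect at 72 h exceeded that at 6 h by 3.32. CALCA 217495_x_at gave 1.05 for that same difference between 72 h and 6 h.

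For RAMP1 the effect of ATRA at 24 h exceeded that at 6 h by 0.86, and the combination's by 0.81 at 24 h and 1.01 at 72 h. The RAMP1 differences at 24 h lost their calls in 6 (ATRA) and 8 (combination) of the fits that left out 1 array, among them the one without replicate 1 of DMSO at 24 h, the array that stood apart (0.57 and 0.52). For CRCP 203898_at the combination's effect exceeded that at 6 h by 0.66 at 24 h and 1.05 at 72 h, while the other CRCP probe set was not called.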

How the results depend on the processing

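No called change reversed its direction. Changes that were not called crossed 0 in places, such as CALCB with ATRA against DMSO at 6 h (-0.03 to 0.04) and in DMSO at 24 h against 6 h (-0.08 to 0.06). Of the values recomputed under settings other than leaving out an array, 755 stayed within their margin or on their side of the threshold, 41 moved, 17 were no longer called and 6 became called. Over the fits that left out 1 array these were 726, 17, 33 and 0. The VPA change of CALCB at 6 h (0.34) was no longer called with a replicate block (0.34, adjusted p = 0.057), a robust trend (0.34, 0.11), a pseudocount of 32 (0.18), a second quantile normalization (0.30) or the 3'/5' covariate (0.33), so the count of members fell to 0, as it did without any of the arrays (0.31 to 0.38, count 0). Its combination change at 6 h became called without the dimmest 33.3% of probe sets or with the brightest probe set per gene (0.34, count 1) and with array weights (0.32, count 2), and likewise against ATRA at 6 h (0.34, and 0.33 with weights, count 2). The numbers of replicates did not pair the samples, and the replicate block changed no other count of calls by over 1.5 times. With a pseudocount of 32 the CALCB changes at 72 h were 3.56 for ATRA and 5.43 for the combination, and 3 of 6 likeness genes were shared.

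Counts of called members with only the compared arrays were 1 for VPA and for the combination at 24 h, 1 for the combination against ATRA at 72 h, 2 for DMSO at 72 h against 6 h, and 1 for the 24 h minus 6 h effects of ATRA and of the combination. Without the dimmest 33.3%, or with the brightest probe set per gene, which test fewer members, they were 2 for the combination at 72 h, 0 and 1 for the combination against ATRA at 72 h, 3 against VPA at 72 h and 2 for the combination's 72 h minus 6 h effect. Other counts were 2 for DMSO at 24 h against 6 h after quantile normalization, and with array weights 2 for DMSO at 72 h and 1 for the VPA effect at 72 h minus 6 h. Leaving out 1 array gave counts of 1 to 2 for VPA at 24 h, 0 to 1 for VPA at 72 h, and 1 to 2 for the ATRA effect at 24 h minus 6 h. For ATRA and for the combination at 24 h it gave 3 to 4, with 4 reached without replicate 1 of DMSO at 24 h. The cause of these shifts was not tested. The median of all probe sets moved by at most 0.08 with quantile normalization, and low signal limits CALCRL, CALCA and CALCB at 6 h.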
